A study of Mus musculus with 2 samples.

Results

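Cortical-type TAL-β nuclei, called TAL-β nuclei below, are described here in libraries prepared from dissected cortex and dissected medulla of mouse kidney. TAL-β cells are the cells of the thick ascending limb (TAL) that carry the divalent cation claudin 16 and the basolateral potassium channel Kir4.1. The nuclei were chosen by counts. A barcode was taken where it held at least 10 counts of Slc12a1, at least 2 of Tmem52b, at least 5 of Enox1 and Thsd4 together, none of Tmem207, at most 1 of Nos1 and Pappa2 together, at most 2 of Lrp2 and Cubn together, and at most 5000 counts in all. The rule found 658 of 5442 barcodes in cortex (12.1%, 95% interval 11.2 to 12.99) and 129 of 8121 in medulla (1.59%, 1.33 to 1.88), 787 of 13563 in all. Of the barcodes that met every limit other than that on Tmem52b and that held no Tmem207, 24.0% in cortex and 10.6% in medulla were TAL-β nuclei. The name stands here for nuclei without Tmem207 only, and the 412 cortical and 183 medullary barcodes that met the other limits and held Tmem207 are not counted in these shares. It also stands only for nuclei with Enox1 and Thsd4, which belong to the study's cortical score. In medulla, a deposited cluster of 535 barcodes led by genes that include Kcnj10 and Cldn16 held 1 of these nuclei. The shares are thus not those of all nuclei with Cldn16 or Kcnj10. The TAL-β nuclei are set beside the barcodes with 0 counts of Tmem52b and otherwise the same limits, called Tmem52b-negative nuclei here, of which there were 1891 in cortex and 1052 in medulla. Slc12a1, Tmem52b, Enox1, Thsd4, Tmem207, Nos1, Pappa2, Lrp2 and Cubn made the choice, so their levels are not findings, and every contrast of TAL-β with Tmem52b-negative nuclei follows from a choice made on the same counts and is given as a description.

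The TAL reabsorbs sodium chloride through the apical cotransporter NKCC2, encoded by Slc12a1. Potassium recycles into the lumen through ROMK (Kcnj1), chloride leaves through basolateral ClC-K channels, and the voltage so produced across the epithelium drives cations between the cells. Claudins set which cations pass: claudin 16 and claudin 19 form the pathway for calcium and magnesium, and claudin 10b forms the one for sodium. The calcium-sensing receptor and the parathyroid hormone receptor act on the divalent pathway, and loss of claudin 16 or claudin 19 causes renal loss of calcium and magnesium.

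Nuclei came from male mice of strain B6 (a C57BL/6 background in the study's methods), labelled WT, of age 12 (the unit is not given), that carried Slc12a1-CreERT2 and the Sun1-sfGFP reporter of the INTACT method, in which Cre acts only in cells that express Slc12a1. All mice received tamoxifen, 1 mg per day for 5 days, with 10 days of induction. The outer strip of the kidney, to about 20% of its depth, was taken as cortex and all tissue below it, with the deep cortex, as medulla, and GFP-positive nuclei were sorted from each. With 1 library per region and no other treatment or genotype, region and library cannot be told apart, nuclei are not replicates, and no test between groups was possible. All intervals are at 95% and cover counting error only. The libraries shared 0 cell barcodes.

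The cortical library held 16457300 counts (median 2427 per barcode) and the medullary library 20947211 (median 2430). TAL-β nuclei summed to 1641719 counts in cortex, with a median of 2308 per nucleus, and to 330078 in medulla, with a median of 2507. Tmem52b-negative nuclei had medians of 2413 and 2686. Levels are counts summed over a group scaled to that group's total and given as CPM. A gene entered the comparisons where the mean CPM of both groups was at least 10, which in TAL-β nuclei alone corresponds to 16.4 counts in cortex and 3.3 in medulla, so that medullary ratios of low genes are imprecise. The median mitochondrial share was 0.115% of counts in cortical and 0.0370% in medullary TAL-β nuclei.

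The marker genes of the class were chosen with earlier results of these data known. Their levels therefore describe the class and are not independent support for its name. Kcnj10, which encodes Kir4.1, had 282 counts in TAL-β and 32 in Tmem52b-negative nuclei of cortex (172 against 6.87 CPM) and 71 against 12 in medulla (215 against 4.24 CPM). Its cortical ratio was 24.99 (17.3 to 37.2) and its medullary ratio 50.7 (27.3 to 103). Cldn16 had 375 against 529 counts in cortex (228 against 114 CPM) and 85 against 290 in medulla (258 against 102 CPM), which is a ratio of 2.01 (1.76 to 2.30) and of 2.51 (1.95 to 3.21). Kcnj10 was thus close to 0 in Tmem52b-negative nuclei, whereas Cldn16 was higher by a factor close to the 2-fold limit, and in cortex its ratio fell below that limit under 5 of 13 alternative settings, to 1.87 at the lowest.

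The remaining markers were also higher in TAL-β nuclei. Nrxn3, a presynaptic adhesion molecule of the neurexin family, had 4421 against 285 CPM in cortex and 3948 against 163 CPM in medulla. Its ratio was 15.5 (14.6 to 16.5) and 24.3 (21.8 to 27.1). Foxq1, a forkhead transcription factor, stood at 131 against 8.38 CPM and 121 against 3.89 CPM, with ratios of 15.6 (11.1 to 22.6) and 31.2 (15.7 to 67.4). Both genes were therefore more than 10 times as abundant in TAL-β nuclei of either region. Col5a2, a chain of the fibrillar collagen V, stood at 2017 against 405 CPM and 1733 against 269 CPM, with ratios of 4.98 (4.70 to 5.27) and 6.45 (5.78 to 7.20). Irx5, an Iroquois homeobox factor, stood at 40.8 against 3.87 CPM in cortex, a ratio of 10.6 (6.20 to 18.9). Within the deposited clusters that held at least 10% of a group, the cortical ratio was 201 for Irx5 (34.8 to 8073) and 37.5 for Foxq1 (22.5 to 67.0). Cluster 4, which holds most members, is itself led by genes that include Irx5 and Foxq1, so these ratios are not independent of the choice of clusters. What made them larger was not tested. In medulla Irx5 rested on 5 against 2 counts and did not reach the 10 CPM minimum. Irx5 lies over the non-coding gene Crnde on the other strand, and whether counting used strand is not stated, so their reads may not be separable. Tmem52b itself, the rule's gene, had from 2 to 18 counts per nucleus in cortex and from 2 to 15 in medulla, with a median of 4 in each.

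The marker genes lie on several chromosomes of GRCm39: Tmem52b at chr6:129489502-129496190, Kcnj10 at chr1:172168765-172201652, Cldn16 at chr16:26281885-26301515, Foxq1 at chr13:31740117-31744959, Nrxn3 at chr12:88689646-90301709, Col5a2 at chr1:45412554-45542442 and Irx5 at chr8:93084253-93102914. Cldn10, the claudin of the sodium pathway, lies at chr14:119025320-119112901.

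**Figure D1:**
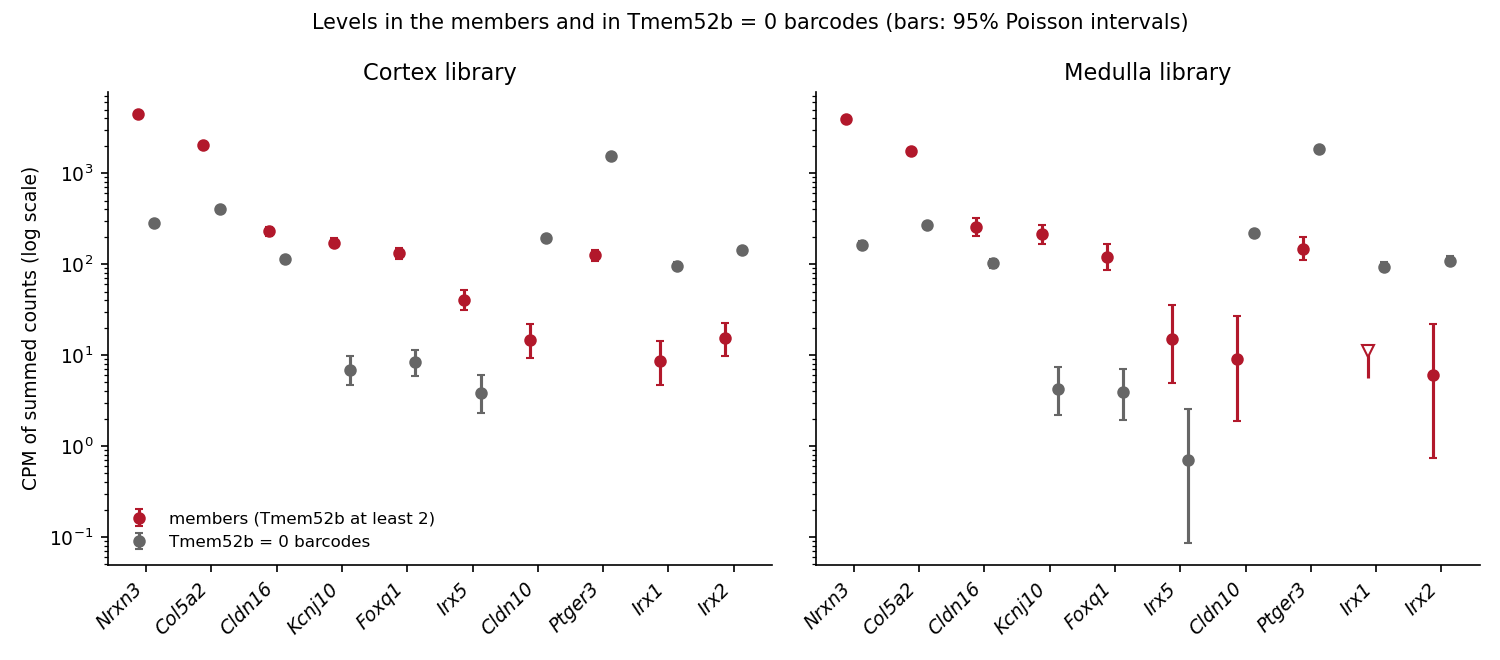
Summed level in CPM (log scale) of 10 genes in TAL-β nuclei (red) and Tmem52b-negative nuclei (grey), with 95% Poisson intervals, for each library. The open triangle is the upper limit for Irx1 in medulla, which had 0 counts in TAL-β nuclei; the 6 genes at the left are higher and the 4 at the right are lower in TAL-β nuclei of both libraries.

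The gene that fell with the rise of Cldn16 was Cldn10. It had 24 counts in cortical TAL-β nuclei against 911 in Tmem52b-negative nuclei (14.6 against 196 CPM), and 3 against 616 in medulla (9.09 against 218 CPM). Its ratios were 0.0747 (0.0476 to 0.112) and 0.0418 (0.00859 to 0.123). Cldn19, the partner of claudin 16, was at 192 against 139 CPM in cortex and 188 against 138 CPM in medulla, ratios of 1.38 (1.20 to 1.58) and 1.36 (1.02 to 1.78) that are short of the 2-fold limit. Among these 3 claudins the ratio was furthest from 1 for Cldn10 and nearest to it for Cldn19. Cldn14, an inhibitor of the claudin 16 pathway, was sparse, at 10 and 0 counts in the TAL-β nuclei of cortex and medulla against 19 and 5.

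Read per nucleus, at least 1 count of Cldn16 was found in 260 of 658 cortical TAL-β nuclei (39.5%, 35.8 to 43.4) and in 54 of 129 medullary ones (41.9%, 33.2 to 50.9). Kcnj10 was found in 32.5% (29.0 to 36.3) and 36.4% (28.1 to 45.4), and Cldn10 in 3.04% (1.87 to 4.66) and 2.33% (0.482 to 6.65). In Tmem52b-negative nuclei these shares were 21.5% and 22.1% for Cldn16, 1.32% and 0.856% for Kcnj10, and 35.4% and 42.0% for Cldn10. The order of Cldn16 and Cldn10 was reversed between the groups in both libraries. After thinning each nucleus to 1000 counts, Cldn16 was found in 18.8% (cortex) and 20.9% (medulla) of TAL-β nuclei, against 10.0% and 10.4% of Tmem52b-negative ones, and Kcnj10 in 14.1% and 16.3% against 0.793% and 0.381%.

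For the level that free RNA alone can give, barcodes rich in Lrp2 and Cubn with at most 2 counts of Slc12a1, which mark the proximal tubule, were read the same way. Their median depth was 4016 counts in cortex (48 barcodes) and 4885 in medulla (77 barcodes), well above that of TAL-β nuclei. Cldn16 was found in 0 of 48 and 0 of 77, which allows shares of up to 6.25% and 3.90%, and Kcnj10 in 2 of 48 (4.17%) and 0 of 77. The shares in TAL-β nuclei lay above these limits for both genes, whereas the 1.32% and 0.856% of Kcnj10 in Tmem52b-negative nuclei lay below the 4.17% in cortex and the limit of 3.90% in medulla, so that they cannot be told from free RNA with so few and deeper barcodes. Cldn10 cannot be judged this way, since the proximal tubule itself expresses it (85.4% and 79.2% of these barcodes).

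Cldn16 and Kcnj10 were found together in 88 cortical TAL-β nuclei (13.4%, 10.9 to 16.2) and in 21 medullary ones (16.3%, 10.4 to 23.8). The products of their separate shares were 12.9% and 15.3%, inside those intervals. Either gene was found in 58.7% (cortex) and 62.0% (medulla) of TAL-β nuclei, against 22.2% and 22.8% of Tmem52b-negative nuclei. Cldn16 and Cldn10 were found together in 11 of 658 cortical TAL-β nuclei (1.67%, 0.837 to 2.97), where the product of their shares was 1.20%.

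The levels moved with the Tmem52b count. With 0, 1, 2, 3 to 4 and 5 or more counts of Tmem52b, Kcnj10 was at 6.87, 105, 161, 172 and 178 CPM in cortex and at 4.24, 84.6, 233, 204 and 218 CPM in medulla. Cldn10 was at 196, 85.4, 43.0, 10.9 and 3.07 CPM in cortex and at 218, 63.5, 14.6, 0 and 16.1 CPM in medulla. Nuclei with a single Tmem52b count, which the rule left out (189 in cortex and 34 in medulla), therefore lay between the groups. Just inside the limit, at 2 counts, there were 146 cortical and 29 medullary nuclei. Cldn16 was at 114, 153, 255, 234 and 209 CPM in cortex over the same steps and at 102, 254, 146, 291 and 282 CPM in medulla, where the nuclei with 1 and 2 counts held only 24 and 10 counts of it. Nrxn3 was at 285, 2743, 3836, 3845 and 5301 CPM in cortex and at 163, 1375, 2493, 4376 and 4277 CPM in medulla, and Foxq1 at 8.38, 63.5, 94.6, 147 and 135 CPM and at 3.89, 52.9, 14.6, 138 and 161 CPM. Past 2 counts, Nrxn3 in cortex was unchanged at 3 to 4 counts and higher at 5 or more. In medulla Nrxn3 was higher at 3 to 4 counts and did not rise again at 5 or more. The cortical intervals of Foxq1 overlapped from 2 counts on, and its medullary value at 2 counts was a single count. At the limit on total counts, 26 cortical TAL-β nuclei with more than 4500 counts had Nrxn3 at 1600 CPM, Cldn10 at 56.6 CPM and Ptger3 at 582 CPM, and 27 cortical barcodes above 5000 counts had them at 1407, 83.8 and 629 CPM. For these 3 genes the deepest nuclei lay nearer to the Tmem52b-negative ones than the class did as a whole, whereas Umod, at 2739 and 2975 CPM, lay further from them. Deep members were also common in cortical clusters 9, 10 and 12, whose members had median totals of 3861, 4236 and 4282 counts, and clusters 9 and 12 are led by genes of other cell types. At the limit on Enox1 and Thsd4, cortical nuclei with 5 counts (19 nuclei) had Kcnj10 at 258 and Cldn10 at 0 CPM, and those with 4 counts (20 nuclei, outside) had them at 144 and 24.0 CPM. In medulla the 10 nuclei with 5 counts had Nrxn3 at 2442 and Col5a2 at 1302 CPM, the 4 nuclei with 4 counts had them at 805 and 0 CPM, and all 26 nuclei below 5 counts had them at 209 and 449 CPM, with Foxq1 at 29.9 CPM. Medullary nuclei outside this limit were thus lower in these markers than the class, more so than in cortex, where the 47 nuclei below 5 counts had Nrxn3 at 3621 and Col5a2 at 1646 CPM.

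**Figure D2:**
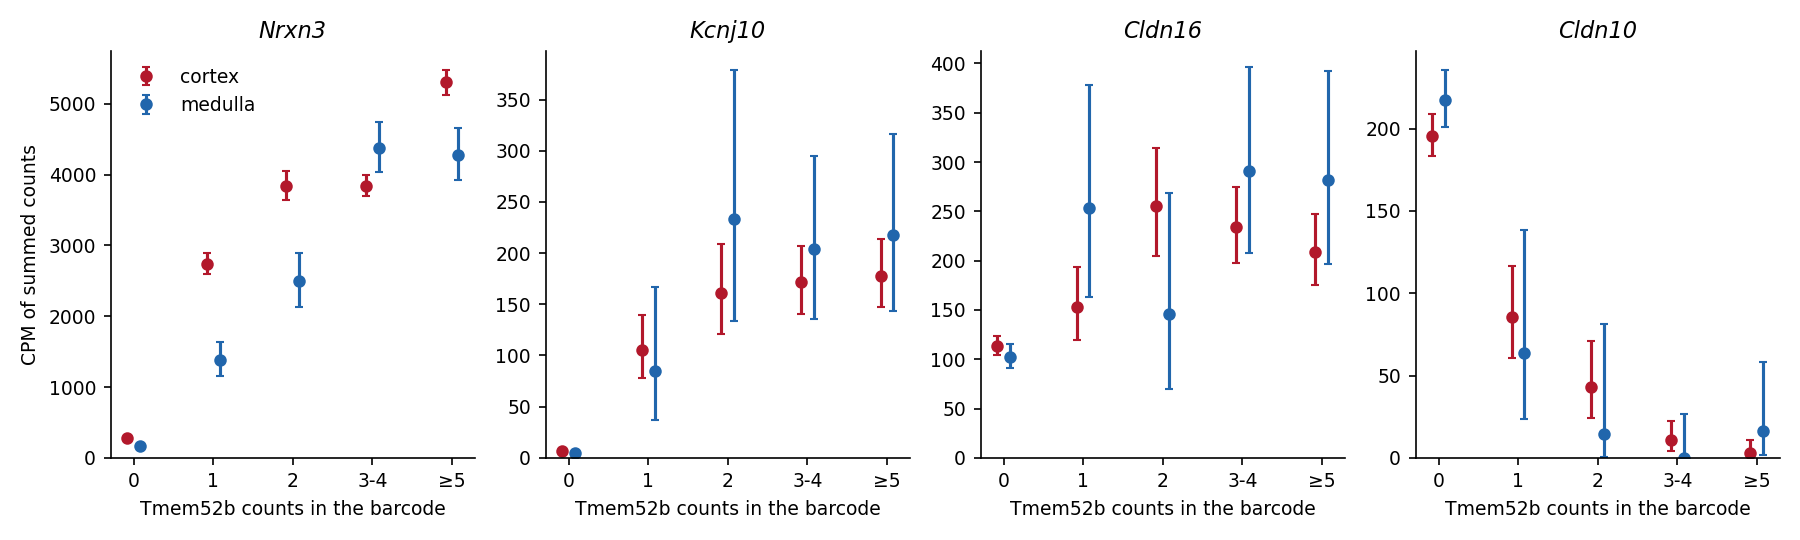
Level in CPM of Nrxn3, Kcnj10, Cldn16 and Cldn10 in nuclei grouped by their Tmem52b count, for cortex (red) and medulla (blue), with 95% Poisson intervals. Kcnj10 rose from 6.87 CPM at 0 counts to 161 CPM at 2 counts in cortex while Cldn10 fell from 196 to 43.0 CPM; the step at 0 holds the Tmem52b-negative nuclei and the steps from 2 on hold the TAL-β nuclei.

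Across all genes, 9261 passed the minimum in cortex and 8854 in medulla, the 9 genes of the rule left out. In cortex 245 genes (2.65%) were higher and 186 (2.01%) lower by at least 2-fold in TAL-β nuclei, and in medulla 476 (5.38%) were higher and 578 (6.53%) lower. The larger medullary numbers were drawn from a summed depth of 330078 against 1641719 counts. The counting interval of the ratio left out 1 for all 431 genes past the limit in cortex, but in medulla for 307 of the 476 higher (64.5%) and 304 of the 578 lower (52.6%), so that many medullary genes past the limit are within counting error of no difference. Of 8562 genes that passed in both libraries, 110 were higher in both, which is 71.4% of the 154 higher in cortex and 29.3% of the 375 higher in medulla. Lower in both were 123, which is 74.1% of the 166 lower in cortex and 21.8% of the 565 lower in medulla. Past the limit in opposite directions was 1 gene, Rcc2. The median ratio of all genes was 1.01 in cortex and 0.996 in medulla, so that the ratios below are read against a centre near 1.

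**Figure D3:**
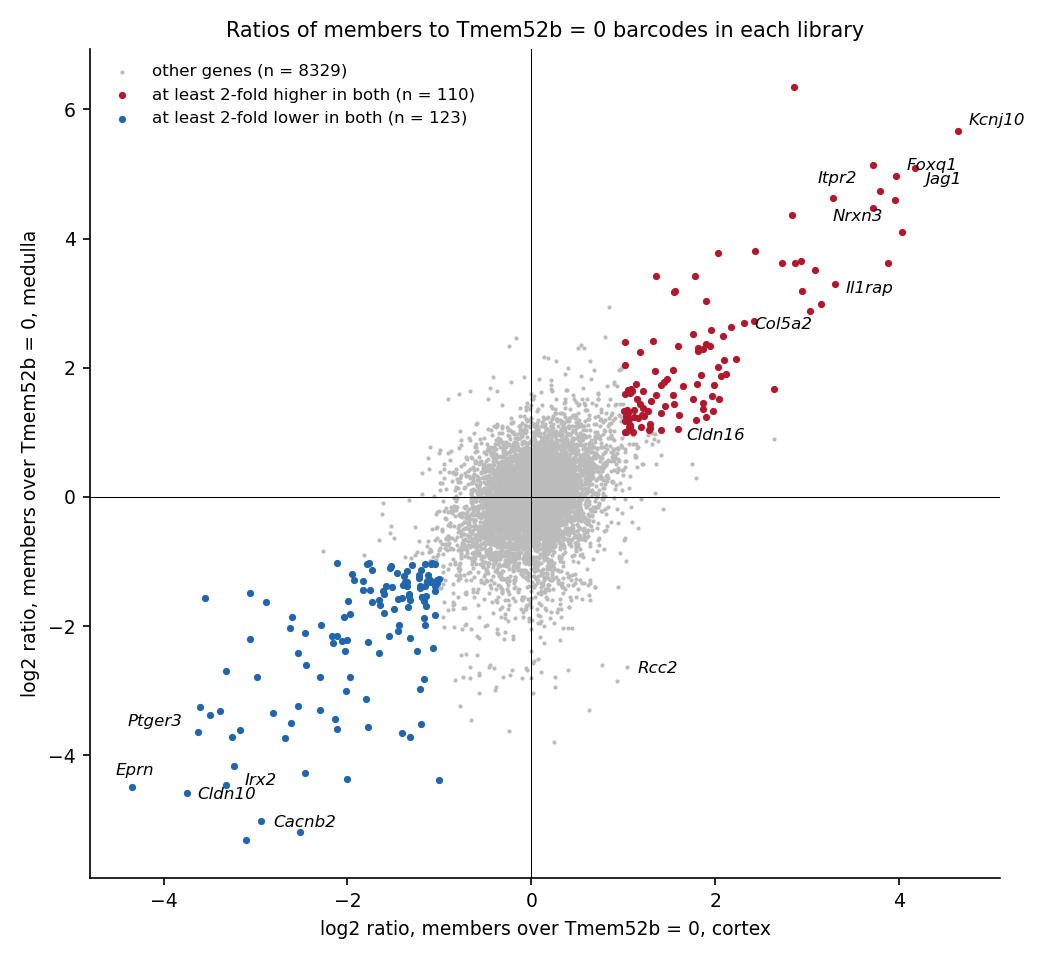
Ratio of TAL-β to Tmem52b-negative nuclei on a log2 scale in cortex (horizontal) and medulla (vertical) for the 8562 genes that passed the minimum in both libraries, each point 1 gene, with genes at 0 counts in 1 group placed at the limit of 3 counts. The 110 genes higher in both lie at the upper right, led by Kcnj10, and the 123 lower in both at the lower left, with Eprn, Cldn10 and Ptger3.

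Apart from Kcnj10, Foxq1 and Nrxn3, the genes with the largest rises held in both libraries were Jag1, Pcdh19, Itpr2, Zfp503, Lrmda, Cracd, Il1rap, Scarf2 and Aff3. Jag1, a Notch ligand, was at 62.1 against 3.44 CPM in cortex and 72.7 against 2.12 CPM in medulla, ratios of 18.1 (10.6 to 32.8) and 34.3 (13.7 to 103). Itpr2, a calcium release channel of the endoplasmic reticulum gated by inositol trisphosphate, was at 474 against 34.2 CPM and 518 against 19.4 CPM, ratios of 13.9 (11.7 to 16.6) and 26.7 (19.6 to 36.8). Zfp503, a zinc finger repressor, and its neighbour Lrmda, 30041 bases apart on chromosome 14, rose together, by 13.2 and 13.1 in cortex and by 35.2 and 22.2 in medulla. Il1rap, the accessory protein of the interleukin 1 receptor, rose by 9.89 (6.95 to 14.4) and 9.80 (4.48 to 21.7), and it lies 98835 bases from Cldn16 on chromosome 16 with Tmem207, which the rule required to be absent, between them. The protocadherin Pcdh19 rose by 16.3 and 17.1, and the cytoskeletal gene Cracd by 14.6 and 12.3. The scavenger receptor family gene Scarf2 (9.75 and 24.8) and the transcriptional regulator Aff3 (8.90 and 7.96) completed the set. The medullary counts of Pcdh19 were only 8 against 4. Without the limit on Enox1 and Thsd4 the medullary ratio of Pcdh19 was 1.66 (0.703 to 3.37), short of the 2-fold limit.

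The largest falls held in both libraries were those of Eprn, Cldn10, Ptger3, Irx1, Pla2g7, Prss12, Robo3, Irx2, Snap91, Chst8, Cacnb2 and Hsd17b14. Ptger3, the prostaglandin E receptor EP3, was at 125 against 1544 CPM in cortex and 148 against 1858 CPM in medulla, ratios of 0.0813 (0.0704 to 0.0934) and 0.0799 (0.0590 to 0.106). Cacnb2, an auxiliary subunit of voltage-gated calcium channels, was at 61.5 against 471 CPM and 18.2 against 585 CPM, ratios of 0.130 (0.106 to 0.159) and 0.0310 (0.0114 to 0.0677). Robo3, an axon guidance receptor, had ratios of 0.0821 and 0.106, and Chst8, a sulfotransferase that acts on carbohydrates, 0.116 and 0.0251 (0.000635 to 0.141, from 1 count). Eprn had 6 against 346 counts in cortex and 1 against 193 in medulla. Pla2g7, a phospholipase of platelet-activating factor, had 7 against 199 and 1 against 189 counts, and the serine protease Prss12 14 against 414 and 2 against 170. Hsd17b14, a steroid dehydrogenase family member, had the weakest of these falls in cortex, with a ratio of 0.143, and rested in medulla on 1 against 87 counts.

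The Iroquois genes split between the groups. Irx1 had 14 against 447 counts in cortex (8.53 against 96.0 CPM) and 0 against 266 in medulla, and Irx2 had 25 against 665 (15.2 against 143 CPM) and 2 against 309 (6.06 against 109 CPM). Irx1 in cortex had a ratio of 0.0888 (0.0482 to 0.151), and in medulla, set at the limit of 3 counts for TAL-β nuclei, it was lower by a factor of at least 10.3. Irx2 had ratios of 0.107 (0.0685 to 0.159) and 0.0555 (0.00669 to 0.202). Irx3 went the other way with Irx5, at 64 against 8 counts in cortex, a ratio of 22.7 (10.8 to 54.8), and at 6 against 4 in medulla. Irx1 and Irx2 lie near each other on chromosome 13 and Irx3 and Irx5 on chromosome 8, and within each pair the direction was shared.

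Since a forkhead factor (Foxq1) and Iroquois factors were among the genes that differed most, the 250 bases before the start of the genes of both claudin pathways and of Kir4.1 are shown. They are read from GRCm39 on the plus strand, before the start of the canonical transcript of GENCODE M39, which for Cldn10 lies inside the gene. Kcnj10 is chr1:172168515-172168764, Cldn16 chr16:26281635-26281884 and Cldn10 chr14:119091894-119092143. Capitals would mark the forkhead core TGTTTA, searched on both strands, and there are none in these windows.
Kcnj10: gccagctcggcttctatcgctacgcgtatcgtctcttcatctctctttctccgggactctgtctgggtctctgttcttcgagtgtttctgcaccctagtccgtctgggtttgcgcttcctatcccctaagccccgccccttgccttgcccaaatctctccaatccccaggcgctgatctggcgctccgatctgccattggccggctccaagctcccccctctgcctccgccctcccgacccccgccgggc
Cldn16: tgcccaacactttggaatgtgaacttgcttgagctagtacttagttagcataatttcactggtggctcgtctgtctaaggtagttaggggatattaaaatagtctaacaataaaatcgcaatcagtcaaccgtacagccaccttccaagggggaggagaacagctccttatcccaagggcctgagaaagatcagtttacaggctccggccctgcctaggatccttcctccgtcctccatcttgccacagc
Cldn10: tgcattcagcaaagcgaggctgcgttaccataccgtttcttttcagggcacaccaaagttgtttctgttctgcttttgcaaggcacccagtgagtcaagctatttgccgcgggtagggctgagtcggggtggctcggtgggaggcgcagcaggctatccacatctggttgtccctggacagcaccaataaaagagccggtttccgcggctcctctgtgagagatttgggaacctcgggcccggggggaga

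The windows of Kcnj10, Cldn16 and Cldn10 held no match to TGTTTA, nor any match to ACANNTGT, the motif searched for Iroquois factors on both strands. No match says only that these letters are not in this window. Of windows of the same length, TGTTTA was in 11.4% of 21770 protein-coding genes and in 8.88% of 8145 genes compared in both libraries, against 8.74% of 103 genes higher and 8.26% of 109 genes lower in TAL-β nuclei of both. ACANNTGT was in 5.84%, 3.86%, 7.77% and 3.67% of the same sets. A match is a description of the sequence and not a binding site.

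Of 23 genes of calcium and magnesium handling, 19 passed the minimum in cortex, 5 of them higher by at least 2-fold and 0 lower, with a median ratio of 1.68 against 1.01 for all genes, of which 2.65% were higher and 2.01% lower. In medulla 16 passed, 5 were higher and 1 lower (5.38% and 6.53% of all genes), with a median of 1.64 against 0.996. Pth1r, the parathyroid hormone receptor, was at 645 against 255 CPM in cortex and 554 against 143 CPM in medulla, ratios of 2.53 (2.33 to 2.76) and 3.87 (3.24 to 4.63). Casr, the calcium-sensing receptor, was at 1672 against 926 CPM and 1609 against 856 CPM, ratios of 1.81 (1.72 to 1.89) and 1.88 (1.71 to 2.07), higher in both and under the 2-fold limit. Vdr, the vitamin D receptor, had ratios of 1.68 (1.49 to 1.89) and 2.29 (1.79 to 2.90), and Cnnm2, a basolateral magnesium transport mediator, of 1.95 (1.70 to 2.24) and 2.71 (2.13 to 3.42). Of these 4 genes, Pth1r alone passed the limit in both libraries, and Vdr and Cnnm2 passed it in medulla.

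Of the 5 list genes past the limit in cortex, 3 are also markers of the distal convoluted tubule, whose RNA was in a few of these barcodes: the magnesium channel Trpm6 (5.34, and 5 against 11 counts in medulla), the sodium calcium exchanger Slc8a1 (6.23 and 3.20) and the calcium buffer Calb1 (13.4, and 4 against 3 counts in medulla). Slc12a3, the sodium chloride cotransporter that defines the distal convoluted tubule, had 578 counts in cortical TAL-β nuclei, and 566 of them (97.9%) came from 13 of the 15 TAL-β barcodes in 1 cluster that is led by Slc12a3, Trpm6, Slc8a1 and Calb1. In medulla all 57 counts came from 1 barcode. Without the clusters that held under 10% of a group, the cortical ratio was 0.764 for Slc8a1, 1.60 for Calb1 and 2.88 for Trpm6. Trpm7, the ubiquitous relative of Trpm6, was the gene below the limit in medulla, with 0.479 (0.376 to 0.603), and had 0.578 in cortex.

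Of 6 TAL identity genes that passed in each library, 0 were past the limit, with medians of 0.934 and 1.17, and the same was true of 12 genes of basolateral salt exit (medians of 1.11 and 1.19). In lists this short a count of 0 is near the background of 2.65% higher and 2.01% lower in cortex and 5.38% and 6.53% in medulla. Umod, which encodes uromodulin, was at 3196 against 4586 CPM in cortex and 3372 against 4945 CPM in medulla, ratios of 0.697 (0.676 to 0.718) and 0.682 (0.641 to 0.725).

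Of the regulators of salt transport, 19 passed in cortex with 2 higher and 3 lower, and 17 in medulla with 1 higher and 3 lower, beside 2.65% and 2.01% of all genes in cortex and 5.38% and 6.53% in medulla. Wnk1, a kinase that activates the cation chloride cotransporters through SPAK, was at 2742 against 780 CPM in cortex and 3130 against 652 CPM in medulla, ratios of 3.52 (3.37 to 3.67) and 4.80 (4.45 to 5.19). Wnk4, its relative, was at 345 against 675 CPM and 351 against 646 CPM, ratios of 0.512 (0.467 to 0.560) and 0.544 (0.447 to 0.656). Stk39, which encodes SPAK, had ratios of 0.654 and 0.649. The kinases of 1 pathway thus lay on opposite sides of 1 in each library. The genes below the limit in both were Cldn10, Ptger3 and Slco3a1, an organic anion transporter that carries prostaglandins, at 385 against 970 CPM and 330 against 952 CPM (0.397 and 0.347). Avpr2, the vasopressin receptor, had 18 against 88 counts in cortex (0.580, 0.329 to 0.971) and 0 against 39 in medulla.

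Potassium channel genes that passed were 10 in cortex (3 higher, 1 lower) and 9 in medulla (3 higher, 2 lower). Of all genes, 2.65% were higher and 2.01% lower in cortex, and 5.38% and 6.53% in medulla. Beside Kcnj10, higher in both were Kctd8, an auxiliary protein of metabotropic receptors, with 3.13 and 3.29, and Kcnip4, which binds voltage-gated potassium channels, with 2.07 and 2.45. Kcnma1, the large-conductance calcium-activated channel, was at 107 against 445 CPM in cortex and 81.8 against 384 CPM in medulla, ratios of 0.240 (0.204 to 0.280) and 0.213 (0.140 to 0.312). Kcnj1, which encodes ROMK, was at 445 against 620 CPM and 470 against 649 CPM, ratios of 0.718 (0.661 to 0.779) and 0.724 (0.610 to 0.853). Kcnj16, which encodes the Kir5.1 partner of Kir4.1, was at 1338 against 1171 CPM and 1206 against 1160 CPM. Its ratios of 1.14 (1.09 to 1.20) and 1.04 (0.934 to 1.15) stand beside 24.99 and 50.7 for Kcnj10, so that the subunits of this channel pair did not differ alike.

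Genes of intracellular calcium and second messengers were 4 higher and 3 lower of 23 in cortex, and 3 and 3 of 22 in medulla. Over all genes the shares were 2.65% and 2.01% in cortex and 5.38% and 6.53% in medulla. Itpr2 (above) and Cadps2, which primes dense core vesicles for release (6.64 and 12.3), rose, and Pde10a, a phosphodiesterase of cyclic nucleotides, was at 2009 against 916 CPM and 1448 against 433 CPM (2.19 and 3.35). Ryr2, the ryanodine receptor release channel, had ratios of 0.263 (0.219 to 0.314) and 0.408 (0.302 to 0.541), and Cacnb4, a calcium channel subunit, of 0.255 (0.234 to 0.277) and 0.283 (0.246 to 0.325). Release channels of both kinds were measured in both libraries, and Itpr2 was the higher and Ryr2 the lower one in TAL-β nuclei.

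Of transcription regulators of tubule segments, 4 of 32 were higher and 6 lower in cortex, and 4 of 30 higher and 6 lower in medulla, against 2.65% and 2.01% of all genes in cortex and 5.38% and 6.53% in medulla. Beside Foxq1 and the Iroquois genes, Tfap2a was higher with 3.74 (2.70 to 5.19) and 5.14 (2.29 to 11.1), while its relative Tfap2b was near 1 with 1.17 and 1.25. Tfap2a shares its locus with Gm26688 on the other strand, which had 40 counts beside 91 of Tfap2a in cortical TAL-β nuclei. Sox5 (0.296 and 0.367), Sim2 (0.301 and 0.457), Zfpm2 (0.126 and 0.144) and the Notch target Hes1 (0.485 and 0.383) were lower. Esrrb, a nuclear receptor, had 0.555 and 0.575, lower in both and short of the limit. Homeobox genes of the C cluster, Hoxc9, Hoxc8, Hoxc6 and Hoxc4, which neighbour each other on chromosome 15, were all among the genes lower in both libraries, with ratios of 0.376 to 0.445 in cortex and 0.142 to 0.481 in medulla.

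Among adhesion and matrix genes, 7 of 29 were higher and 2 lower in cortex, and 7 of 28 higher and 3 lower in medulla (all genes 2.65% and 2.01%, and 5.38% and 6.53%). Nrxn3 and Col5a2 are of this list. Col18a1, whose collagen XVIII lies in basement membranes, was at 41.4 against 14.2 CPM and 36.4 against 13.4 CPM (2.92 and 2.71). Tinag, a basement membrane glycoprotein of the tubule, was at 384 against 132 CPM and 530 against 177 CPM (2.91 and 2.99). Efemp1, an extracellular fibulin, had 2.57 and 3.00. Tenm4, a transmembrane teneurin, had 0.319 and 0.315, and Itgb8, an integrin subunit, 0.354 and 0.301. Of secreted signals and their receptors, 3 of 31 were higher and 7 lower in cortex, and 3 of 28 higher and 2 lower in medulla, where the number lower is near the background of 6.53%. Fgf9, a fibroblast growth factor, had 3.04 and 2.42, and Sostdc1, an antagonist of BMP and Wnt signals, 2.45 and 2.18. Robo3 was the member of this list with the largest fall held in both, while its relative Robo1 was at 96.2 against 41.5 CPM in cortex (2.32, 1.87 to 2.88) and at 45.4 against 31.8 CPM in medulla (1.43, 0.768 to 2.48). Calcr, the calcitonin receptor, had 6 against 120 counts in cortex (0.142, 0.0510 to 0.318) and 0 against 39 in medulla.

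RNA of several other cell types was higher in cortical TAL-β than in cortical Tmem52b-negative nuclei, and that of others was not. Summed over the lists, distal convoluted tubule markers were at 1503 against 632 CPM (7 genes, 0 of them at 0 counts, Slc8a1 most abundant), endothelial markers at 161 against 101 CPM (8 genes, Flt1 most abundant), stromal markers at 99.3 against 47.0 CPM (8 genes, Meis2 most abundant), intercalated cell markers at 89.5 against 44.3 CPM, connecting tubule and principal cell markers at 84.7 against 33.1 CPM, podocyte markers at 50.6 against 15.3 CPM and proximal tubule markers at 889 against 708 CPM (13 genes, Kap most abundant). Close in both groups were immune markers (21.9 against 22.1 CPM), thin limb markers (244 against 236 CPM) and macula densa markers, nearly all Egf, which the TAL itself expresses (14256 against 14234 CPM). Keeping only deposited clusters that held at least 10% of a group left 564 cortical TAL-β nuclei, in which the sums of the first 7 lists were 570, 31.8, 27.1, 27.9, 20.9, 10.8 and 628 CPM. In medulla distal markers were at 1057 against 532 CPM (1066 CPM in the 124 members of the larger clusters), endothelial markers at 42.4 against 35.7 CPM, intercalated cell markers at 18.2 against 8.48 CPM and podocyte markers at 9.09 against 5.30 CPM, while stromal markers were at 6.06 against 16.6 CPM, connecting tubule and principal cell markers at 18.2 against 33.9 CPM and immune markers at 3.03 against 9.54 CPM, with 7 of 8 immune genes at 0 counts in TAL-β nuclei. At least 5 counts over 17 defining genes of other types were held by 46 of 658 cortical (6.99%) and 2 of 129 medullary TAL-β nuclei (1.55%). Without such barcodes in either group the ratio of Kcnj10 was 27.3 in cortex and 50.8 in medulla, that of Nrxn3 16.4 and 24.7, that of Cldn16 2.07 and 2.53 and that of Cldn10 0.0624 and 0.0426. With both groups kept to the larger clusters instead, Kcnj10 had 196 (75.4 to 724) and 115 (46.8 to 364), Nrxn3 30.4 and 34.1, Cldn16 2.14 and 2.62 and Cldn10 0.0151 and 0.0140, each further from 1 than over all members. The clusters were made from the same counts and are led by some of these genes, so that these ratios are not independent of the choice of clusters. The limit takes out the 22 and 43 cortical Tmem52b-negative nuclei of clusters 2 and 4. In all it left 564 of 658 TAL-β and 1660 of 1891 Tmem52b-negative nuclei of cortex. Which of these removals made the ratios larger was not tested. The part of RNA from other cells in the remaining ratios was not tested.

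The cluster numbers deposited with each library placed the TAL-β nuclei of cortex mainly in clusters 4 (371 nuclei, 56.4%) and 2 (193, 29.3%). Smaller numbers were in cluster 9 (37), cluster 10 (26), cluster 12 (15, led by Slc12a3) and others. In medulla 124 of 129 (96.1%) were in 1 cluster. Nuclei that met the same limits with Tmem207, 412 in cortex and 183 in medulla, were mostly in cortical cluster 2 (83.3%) and in the medullary cluster of the TAL-β nuclei (96.2%). Of nuclei with at least 2 Tmem52b counts and the other limits, Tmem207 was present in 38.5% (35.6 to 41.5) in cortex and 58.7% (53.0 to 64.2) in medulla. Nuclei without Tmem207, which are the TAL-β nuclei of the rule, were thus the larger group in cortex and the smaller in medulla. Nuclei with Tmem207 were deeper, with medians of 2710 counts in cortex and 3036 in medulla against 2308 and 2507, and the part of depth in this split and in the contrast between these groups was not tested. The clusters were made from the same counts, so differences between them are a description.

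Within cortical TAL-β nuclei, cluster 4 stood above cluster 2 by at least 2-fold for 461 of 9018 genes and below it for 390. Nrxn3 was at 7410 CPM in cluster 4 and 1255 CPM in cluster 2, a ratio of 5.91 (5.43 to 6.43). Irx5 had 57 against 6 counts (5.79, 2.50 to 16.4), Tfap2a 68 against 4 (10.4, 3.86 to 39.1) and Il17rb, a receptor of interleukin 17 family cytokines, 69 against 3 counts (14.0, 4.60 to 69.6). Fstl1, a secreted glycoprotein, had 9.63 (5.25 to 19.7) and Tshr, the thyrotropin receptor, 4.00 (2.87 to 5.70). Nrxn3 and Irx5 were thus higher in cluster 4 than in cluster 2. Both are among the genes that lead cluster 4, which was made from the same counts, so this is a description.

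The reverse held for Sim2, at 3 against 47 counts (25.7 times higher in cluster 2, 8.28 to 129), Pcsk6 at 3 against 43 (23.5 times, 7.53 to 119), the retinoid flippase Abca4 (9.03 times) and the splicing factor Rbfox1 (6.14 times, 4.69 to 8.13). Cacnb4 was at 96.0 CPM in cluster 4 and 546 CPM in cluster 2, and at 642 CPM in medullary TAL-β nuclei. Kcnj10 and Casr were close between the clusters, at 0.84 and 1.09 times in cluster 4, and Cldn16 (0.67) and Umod (0.65) were somewhat lower there. Medullary TAL-β nuclei lay near cortical cluster 2 for Sim2 (75.7 against 96.2 CPM), Pcsk6 (81.8 against 88.0 CPM), Cacnb4 and Irx5 (15.1 against 12.3 CPM), and between the clusters for Nrxn3 (3948 CPM), Tfap2a and Tshr (185 CPM).

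**Figure D4:**
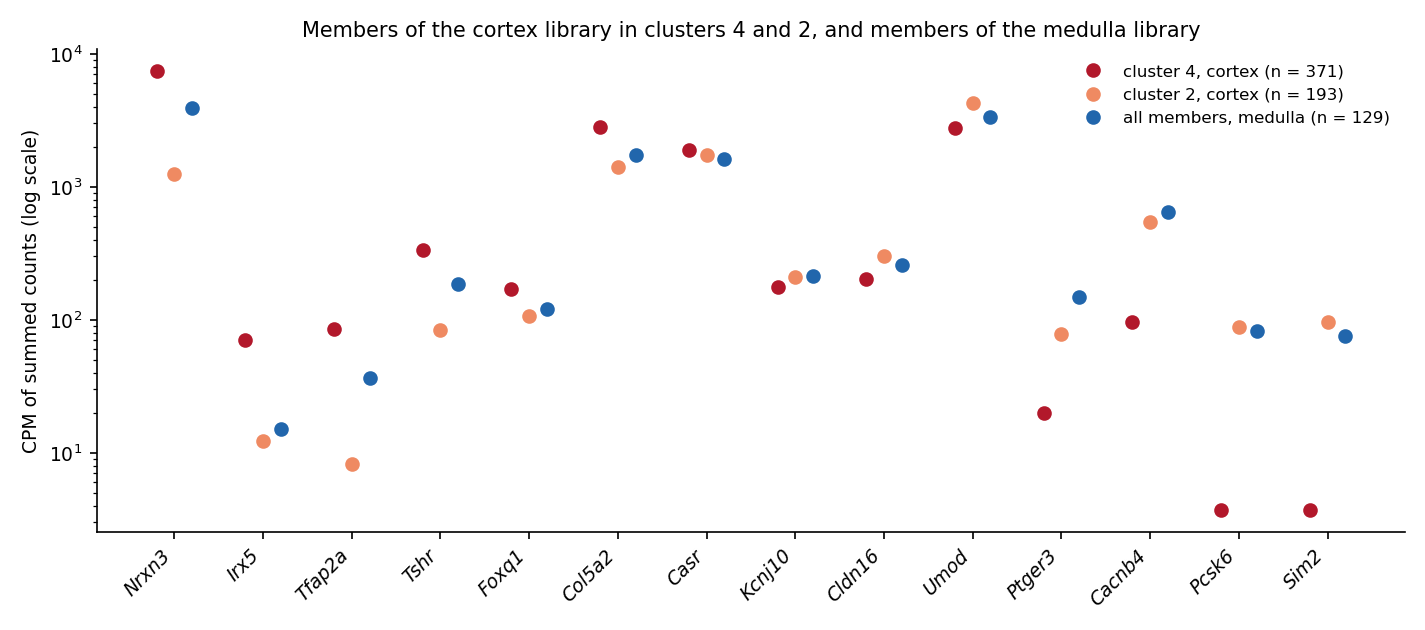
Level in CPM (log scale) of 14 genes in cortical TAL-β nuclei of cluster 4 (dark red, 371 nuclei) and cluster 2 (orange, 193 nuclei) and in medullary TAL-β nuclei (blue, 129), without intervals. Nrxn3 was at 7410, 1255 and 3948 CPM in that order, Sim2 at 3.74, 96.2 and 75.7 CPM, and Kcnj10 and Casr lay close together.

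Set against Tmem207-positive nuclei, fewer cortical genes stood apart. Higher in TAL-β nuclei were 203 of 9206 genes (2.21%) and lower 84 (0.912%) in cortex, and 614 of 8718 (7.04%) and 501 (5.75%) in medulla. In medulla the TAL-β and Tmem207-positive nuclei summed to only 330078 and 557376 counts, so part of these medullary numbers may be counting error. Nrxn3 was at 4421 against 912 CPM in cortex and 3948 against 784 CPM in medulla, ratios of 4.85 and 5.03. Irx5 had a ratio of 3.61 (1.98 to 7.14) in cortex and rested in medulla on 5 against 4 counts (2.11, 0.454 to 10.6). Tfap2a had ratios of 5.32 and 6.75, Fstl1 of 3.90 and 4.16 and Col5a2 of 1.47 and 1.83. In the divalent pathway Casr had 0.990 and 1.02, Pth1r 0.916 and 1.05 and Cldn16 0.824 (0.708 to 0.960) and 0.793 (0.605 to 1.03). Kcnj10 had 0.785 (0.660 to 0.934) in cortex and 1.28 (0.924 to 1.75) in medulla, on either side of 1, and Umod had 0.671 and 0.713. Rbfox1 (0.43 and 0.31), Pcsk6 (0.38 and 0.39), Abca4 (0.44 and 0.28) and the membrane protein Ano4 (0.27 and 0.30) were lower in both libraries. Markers of other cell types moved with this contrast too. In cortex distal convoluted tubule markers were at 1503 against 791 CPM (4 of 6 compared genes higher), intercalated cell markers at 89.5 against 26.1 CPM (2 of 2 higher), endothelial markers at 161 against 306 CPM (4 of 7 lower) and stromal markers at 99.3 against 164 CPM. Slc8a1 had a cortical ratio of 12.3 (8.93 to 17.5), and Slc12a3 had 57 counts, all from 1 barcode, against 2 in medulla. Their part in the other ratios was not tested. The absence of Tmem207 was a condition of the rule, so these ratios too describe the choice.

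Between the regions, 9087 genes passed the minimum in TAL-β nuclei, of which 654 (7.2%) were at least 2-fold higher in cortex and 243 (2.67%) at least 2-fold higher in medulla, with a median ratio of cortex over medulla of 1.02. Medullary TAL-β nuclei summed to only 330078 counts, so part of these numbers may be counting error. Markers of other cell types differed too: distal convoluted tubule markers were at 1503 CPM in cortex against 1057 in medulla, endothelial at 161 against 42.4 and intercalated at 89.5 against 18.2. The sum of the macula densa markers was higher in medulla (17496 against 14256 CPM), but nearly all of it was Egf, which the TAL itself expresses. Egf alone was at 17390 CPM in medulla and 14094 CPM in cortex, and 3 of the 6 genes were at 0 counts in medulla. Proliferation markers were at 57.6 CPM in medulla and 6.70 CPM in cortex, from only 19 and 11 counts. The part of all these markers in the numbers was not tested. The rule asked for at least 5 counts of Enox1 and Thsd4 in both libraries, so this contrast too follows from the choice and is a description. None of the class markers other than Irx5 passed the 2-fold limit. Kcnj10 had 0.799 (0.614 to 1.05), Cldn16 0.887 (0.699 to 1.14), Foxq1 1.08 (0.768 to 1.56), Nrxn3 1.12 (1.06 to 1.19) and Col5a2 1.16 (1.06 to 1.27), while Irx5, with 67 against 5 counts, had 2.69 (1.10 to 8.57). Except for Nrxn3, Col5a2 and Irx5 these intervals reached across 1. Among nuclei below the limit on Enox1 and Thsd4, Nrxn3 was at 3621 CPM in cortex (47 nuclei) and 209 CPM in medulla (26 nuclei).

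The study scored cortical and medullary identity with 13 genes each, which it chose on these libraries, so their direction is not independent evidence. Leaving out Enox1 and Thsd4 of the rule, all 11 cortical genes were higher in cortical than in medullary TAL-β nuclei, by a median of 1.19, and in Tmem52b-negative nuclei the same 11 were higher by a median of 1.45. In all 11 the ratio was nearer to 1 in TAL-β nuclei, though the intervals overlapped for several. Both groups were chosen by at least 5 counts of Enox1 and Thsd4, genes of this same score, so these ratios describe nuclei chosen for cortical genes. The part of that choice in the ratios was not tested. Pde10a had 1.39 (1.26 to 1.54) in TAL-β and 2.12 (1.99 to 2.25) in Tmem52b-negative nuclei, and Pth1r 1.16 (0.994 to 1.37) and 1.78 (1.59 to 1.99). Of the 13 medullary genes, 11 were lower in cortical TAL-β nuclei (median 0.698), as were all 13 in Tmem52b-negative nuclei (median 0.678). Scin, an actin-severing protein, had 0.459 (0.352 to 0.607) and Pcsk6 0.477 (0.300 to 0.777), the 2 genes past the limit, and Slc5a3, the inositol cotransporter of osmotic adaptation, had 0.653 (0.584 to 0.732). Magi2 (1.87, 1.56 to 2.26) and Pax2 (1.19, 0.991 to 1.44) were higher in cortical TAL-β nuclei.

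Set against Tmem52b-negative nuclei of the same library, the ratios of the cortical score genes in TAL-β nuclei were above 1 for 8 of 11 in cortex (2 past the limit, 2.65% of all genes being so) and 11 of 11 in medulla (4 past the limit, against 5.38%), with medians of 1.29 and 1.58. Of the 13 medullary genes, 3 in cortex and 0 in medulla were above 1, and 3 were lower past the limit in each (2.01% and 6.53% of all genes), with medians of 0.886 and 0.809.

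**Figure D5:**
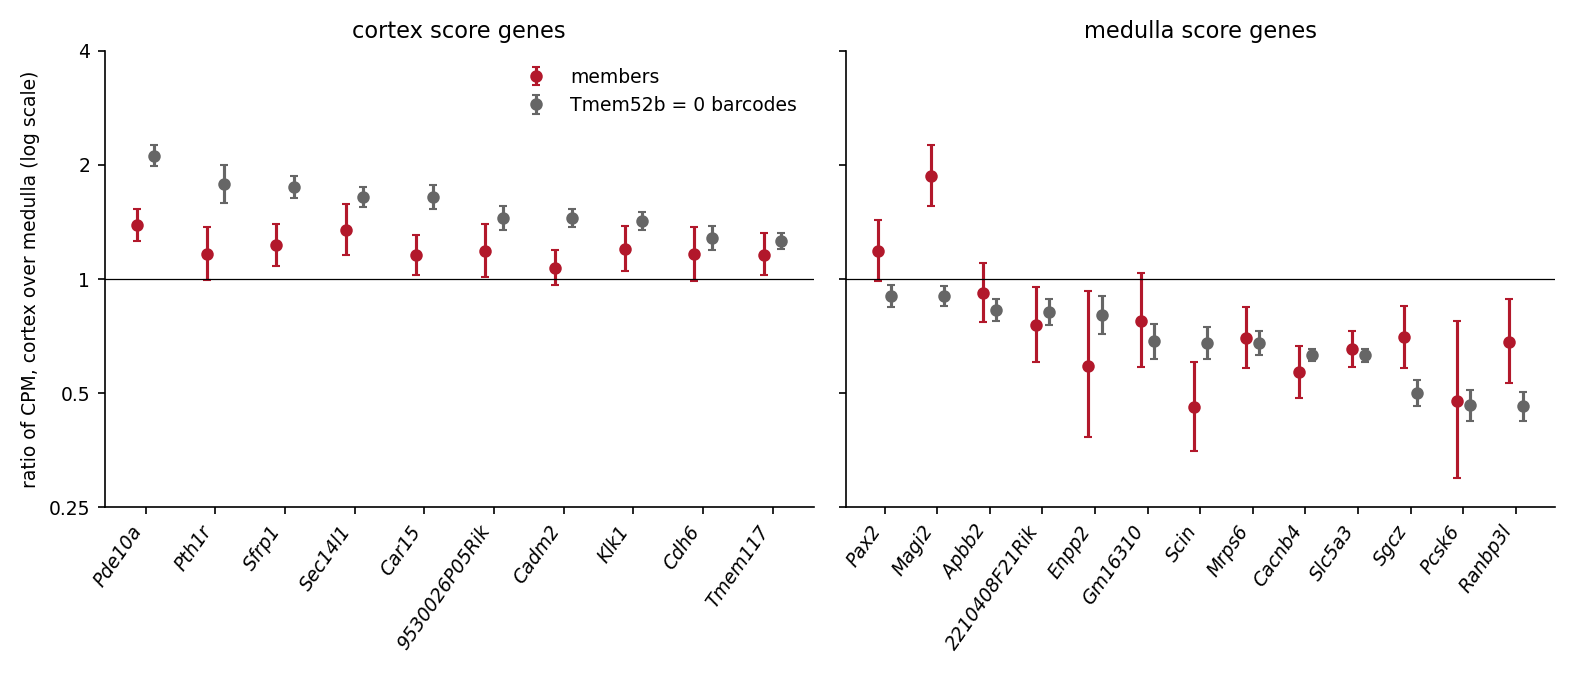
Ratio of CPM in cortex over medulla (log scale) for the score genes in TAL-β nuclei (red) and Tmem52b-negative nuclei (grey), with 95% intervals, for the genes reported here other than Enox1 and Thsd4. The 10 cortical genes drawn lie above 1 in both groups and nearer to it in TAL-β nuclei, and Magi2 and Pax2 are the medullary genes above 1 in TAL-β nuclei.

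The genes furthest apart between the regions rested on few medullary counts or on barcodes with RNA of other types. Meis2, a homeobox factor of stroma, and Ldb2, a LIM domain binding protein of endothelium, led the cortical side with 122 and 111 counts against 1 each, and Tshz2 had 154 against 0. Without the small clusters 16, 20 and 22 of these cortical counts were left, so that most of them came from the 94 cortical nuclei outside clusters 4 and 2. Furin, a proprotein convertase, kept 47 of 53 counts against 1 there, and Inpp4a, an inositol phosphatase, 41 of 57 against 1. On the medullary side Top2a, a topoisomerase of dividing cells, had 7 counts against 0 in cortical TAL-β nuclei, where the limit of 3 counts makes it at least 11.6-fold higher, and Bmp5, a bone morphogenetic protein, had 8 against 4. After thinning to 1000 counts, medullary TAL-β nuclei held 0 counts of Furin and Inpp4a. The limit of 3 counts then makes their ratios at least 1.44 and at least 1.05, which cannot say whether they stayed past the 2-fold limit. With medullary sums of 0 or 1 count for the 10 genes furthest to the cortical side and of 6 to 10 for the 10 furthest to the medullary side, their order is not resolved.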

How the data were processed

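Single nuclei were measured in 2 libraries, 1 of sorted nuclei from cortex and 1 from medulla. Per the labels and the study's methods, the authors used the PIPseq T10 kit (version 5.0), bcl2fastq and PIPseeker 3.3.0 with GRCm39, and Seurat 4.4.0 for later steps. The deposited values are raw whole-number counts per gene and barcode, used as the filtered matrices without doublet removal or ambient correction. The study's methods date the GRCm39 reference by year, and a gene annotation release is not given in the sources used here. The 13 deposited cluster numbers per library were used to describe the nuclei only.

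Tables were computed with pandas 2.3.3, scipy 1.17.1 and numpy 2.4.6 under Python 3.11.15, and figures drawn with matplotlib 3.10.9. Counts were summed per group and library and scaled to CPM, and libraries were never summed together. CPM have exact Poisson, ratios conditional binomial and shares Clopper-Pearson intervals, all at 95% and for counting error only. A gene was compared at a mean CPM of at least 10 over both groups, the 9 genes of the rule left out, and a group at 0 counts was set to a limit of 3 counts. Detection was also computed with each nucleus thinned to 1000 counts. Scrublet (scanpy 1.11.5) removed 359 barcodes of cortex as an alternative. In medulla its threshold called 3 barcodes (0.0369%), and the 406 top-scoring ones were taken out instead. Free RNA was taken from barcodes of the raw matrices with at most 100 counts. Scripts were tested on simulated data.

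The members and all 28 gene lists were chosen with earlier results of these data known, and the lists of both scores come from the study. Genes were named as markers, as the list members with the largest ratios or a role in the tissue, as the 12 highest and 12 lowest of both libraries by the smaller of their changes, and as the 10 highest and lowest between regions, predicted genes left out. Genes named for the clusters, the Hoxc genes and the genes apart from Tmem207-positive nuclei were chosen after their values were seen. Coordinates and starts are from GENCODE M39. A few list members count in the summaries and are not reported here by name. Alternatives to the limits, filters, scaling and doublet and ambient treatment were computed.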

Additional observations from a re-analysis of the deposited data

Results flagged for a closer look

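Rcc2, which encodes a regulator of chromosome condensation and cell division, was the 1 gene of 8562 compared in both libraries whose ratio of TAL-β to Tmem52b-negative nuclei passed the 2-fold limit in opposite directions. The ratio was 2.06 (1.42 to 2.97) in cortex, from 53 against 73 counts, and 0.162 (0.00402 to 0.941) in medulla, from 1 against 53 counts. The difference between the regions was not tested, and the medullary value rests on a single count in 129 nuclei.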

How the results depend on the processing

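Recomputed under each alternative, the numbers of genes past the 2-fold limit stayed within 1.5 times in 117 cases and moved further in 33. No paired analysis was possible because each region has 1 library and no result comes from a test. All numbers follow in the order higher and lower, for TAL-β against Tmem52b-negative nuclei in cortex and in medulla, cortical against medullary TAL-β nuclei, and TAL-β against Tmem207-positive nuclei in cortex and in medulla. At a mean CPM of at least 30 they were 103 and 100, 162 and 186, 117 and 38, 41 and 18, and 147 and 99. With no filter on genes they were 2421 and 1009, 2169 and 1010, 1300 and 1456, 1434 and 1085, and 1272 and 950. After thinning to 1000 counts they were 379 and 318, 993 and 1061, 1107 and 803, 538 and 345, and 1382 and 1266. Taking Tmem52b from 1 count on gave 161 genes lower in cortical than in medullary TAL-β nuclei, dropping the limit on Enox1 and Thsd4 gave 324 genes lower than in Tmem207-positive nuclei in medulla, and keeping only clusters that held at least 10% of a group gave 150 such genes in cortex.

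The share of members moved to 15.6% and 2.01% of cortical and medullary barcodes with Tmem52b from 1 count on, and to 9.41% and 1.23% from 3 counts on. It was 11.1% in cortex without Scrublet doublets, 10.4% in cortex within the larger clusters, and 1.91% in medulla without the limit on Enox1 and Thsd4. Among the ratios of named genes, 931 moved by less than their interval, and 118 moved by more in the same direction. Some of the 931 crossed 1: Foxq1 in cortical over medullary TAL-β nuclei went from 1.08 to 0.944 with Tmem52b from 3 counts on. The other 3 rested on 1 medullary count, and after thinning on 0, so that their values are limits set by 3 counts. Hsd17b14 in medulla was at most 1.06, and Kctd2 and Pakap in cortical over medullary TAL-β nuclei were at least 0.915 and 0.980. These limits do not show that a ratio crossed 1. The cause of the moves was not tested. Centring on the median gene moved no median by over 0.0314 on the log2 scale. The limit to larger clusters, and leaving out barcodes with at least 5 counts of defining genes of other cell types, were chosen after seeing the data. Medullary values rest on 129 nuclei and 330078 counts, where 3 counts are 9.09 CPM, against 1.83 CPM in cortex, so that medullary ratios from fewer counts, such as those of Rcc2, Irx2 and Hsd17b14, have wide intervals.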

Other observations

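Of 28 genes of energy metabolism that were compared in each library, 1 was higher and 1 lower in TAL-β than in Tmem52b-negative nuclei by at least 2-fold in each. Over all genes the shares were 2.65% and 2.01% in cortex and 5.38% and 6.53% in medulla, so these numbers are near the background, and the medians were 1.04 in cortex and 0.977 in medulla. The gene past the limit on the high side was Oxr1, which protects against oxidative damage, with ratios of 2.33 (2.05 to 2.65) and 3.11 (2.49 to 3.86), and on the low side Ckb, the brain-type creatine kinase, with 0.451 (0.270 to 0.718) and 0.345 (0.125 to 0.769). Ppargc1a, a coactivator of mitochondrial biogenesis, was at 1201 against 777 CPM in cortex and 1412 against 1150 CPM in medulla, ratios of 1.55 (1.46 to 1.63) and 1.23 (1.11 to 1.35). The nuclear receptor Esrrg was at 3108 against 4407 CPM and 3017 against 4448 CPM, ratios of 0.705 (0.684 to 0.727) and 0.678 (0.635 to 0.724). Slc9a3, the apical sodium proton exchanger NHE3, was at 697 against 400 CPM and 712 against 489 CPM, ratios of 1.74 (1.62 to 1.88) and 1.46 (1.26 to 1.67).

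Of osmolyte transport genes, 6 were compared in cortex with 1 higher, the taurine transporter Slc6a6 (2.37, 1.48 to 3.78), and 0 lower, and 5 in medulla with 0 in either direction. Of immediate early genes, 4 were compared in cortex and 5 in medulla, and 0 passed the limit in either. In lists this short these numbers cannot be told from the shares over all genes given above. Proliferation markers were almost absent from cortical TAL-β nuclei, with 5 of 10 genes at 0 counts and 6.70 CPM in sum, against 57.6 CPM in medullary TAL-β nuclei, where Top2a had 7 counts in 3 nuclei. In Tmem52b-negative nuclei the sums were 22.8 and 7.77 CPM.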
